A study of Mus musculus with 8 samples.

Results

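Complex I, the NADH dehydrogenase of the mitochondrial respiratory chain, was followed through the messenger RNAs of its nuclear-encoded subunits and assembly factors. Members were the rows of the deposited mouse count table whose symbol begins with Nduf, goes on with the letter a, b, c, s, v, ab or af and ends in a number, which leaves out pseudogene names. This took 46 genes of the 53921 rows that name a gene, and all 46 passed the filter on low counts. They comprise 37 structural subunits, 8 assembly factors and Ndufa4.

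RNA-seq was carried out on induced cardiomyocytes, labelled "Induced cardiomyocytes(Neo)", 5 days after lentivirus. All libraries came from cells given MGT, the usual abbreviation for the cardiac transcription factors Mef2c, Gata4 and Tbx5 that reprogram fibroblasts. The 2 control libraries (MGT+shNT) carried the shNT hairpin and the 2 others (MGT+shGrhl3) a hairpin against Grhl3, a grainyhead-like transcription factor. The 4 H3K27ac CUT&Tag samples of the series were not analysed here. The labels do not say how many hairpins were used, from how many animals the cells came or whether the replicates were cultured apart. The p-values therefore reflect the variation among these 4 libraries alone, and it may be technical. In the count table the knockdown columns are headed shGrhl1 and shGrhl2. They were taken as replicates 1 and 2 of shGrhl3, the only hairpin target named in the labels. Taken literally, the headings would mean that Grhl1 and Grhl2 were the targets, and every fold change below would then compare other knockdowns with shNT. Grhl1 had 13 and 3 counts in the shNT columns and 26 and 24 in the columns headed shGrhl1 and shGrhl2 (log2 fold change 1.51, SE 0.62, adjusted p = 0.0613 by edgeR), and Grhl2 had 0 to 5 counts in any column, too few to test.

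Complex I takes electrons from NADH and passes them through a flavin and a chain of iron-sulphur clusters to ubiquinone, and pumps protons across the inner mitochondrial membrane. It is L-shaped: a matrix arm holds the electron path, and a membrane arm, built around subunits encoded by mitochondrial DNA, holds the proton channels. Most nuclear subunits are accessory proteins that surround this core, and dedicated assembly factors help build the modules without staying in the finished enzyme. Cardiomyocytes are rich in mitochondria and rely on oxidative phosphorylation, whereas fibroblasts depend on it less.

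The libraries held 16104243 to 19823397 counts each. The hairpin's target, Grhl3, gave counts of 31 and 14 with shNT and of 11 and 19 with shGrhl3, so the groups overlapped. Its log2 fold change of -0.69 (95% interval -1.85 to 0.46) had an adjusted p of 0.362 by edgeR's quasi-likelihood test, and the knockdown was not detectable at this depth. The value ran from -1.17 without shGrhl3 replicate 2 to -0.18 without shNT replicate 1. All 10 cardiomyocyte markers on the list were measured in every library, and 4 were higher and 1 lower in shGrhl3. Among all genes tested 17.1% were higher and 17.9% lower. The markers summed to 4772 to 4798 CPM (counts scaled to a common library total) in shNT and 5714 to 5888 in shGrhl3. Tnnt2 had the highest CPM of the 10, with means of 3210 in shNT and 3204 in shGrhl3. The higher ones were Myh6 (mean 20.6 to 250 CPM), Tnni3 (8.48 to 50.8), Actc1 (277 to 544) and Myl7 (707 to 1161). Nppa was lower (11.7 to 7.66 CPM). Cardiac fibroblast markers stayed abundant, summing to 12180 to 12302 CPM in shNT and 12659 to 13248 in shGrhl3, with 1 of 10 higher and 6 lower. Col1a1, the 1 that was higher, had the highest CPM of the 10, with means of 4196 in shNT and 6076 in shGrhl3. The sum thus rose although 7 of the 10 log2 fold changes were negative. Leukocyte and macrophage markers summed to 666 and 916 CPM in shNT and to 152 and 121 in shGrhl3, with 9 of 10 lower and Csf1r higher, and none of the 10 was at 0. Of 6 endothelial markers 1 was lower (summed level 55.3 and 51.1 CPM in shNT, 44.1 and 39.4 in shGrhl3). Of 6 smooth muscle and pericyte markers 3 were higher (877 and 910 CPM in shNT, 1362 and 1349 in shGrhl3). Of 6 epithelial markers 2 were higher (5.85 and 6.42 CPM in shNT, 21.6 and 17.3 in shGrhl3), and Epcam, Cdh1 and Cldn4 had 0 to 4 counts. The ribosomal RNA gene Rn18s took 0.573% and 2.00% of counts in shNT and 0.0959% and 0.156% in shGrhl3. With ribosomal RNA rows left out, as with them, 20 complex I members were higher and 2 lower. The marker differences go along with every comparison below, and their part in the complex I values was not tested. In bulk RNA, fewer cells of a type and less RNA per cell cannot be told apart.

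Most complex I messages that passed the test were more abundant in shGrhl3, by modest amounts. Of the 46 members, 20 were higher, 2 were lower and 24 did not pass (edgeR's quasi-likelihood test, Benjamini-Hochberg adjusted p under 0.05 over 15324 genes). Among all genes tested, 35.0% passed, 17.1% higher and 17.9% lower, against 47.8% of the members, 43.5% higher and 4.35% lower. The median log2 fold change of the members was 0.24, beside -0.01 for all genes, whose middle 50% ran from -0.33 to 0.28. In 29 members both shGrhl3 libraries lay above both shNT libraries, in 4 both lay below, and in 13 the groups overlapped (32.8% and 33.7% of all genes lay above and below). The members' summed level was 2269 and 2272 CPM in shNT and 2757 and 2566 CPM in shGrhl3, a ratio of means of 1.17. Without shNT replicate 2 only 8 members were higher and 1 lower, and without shNT replicate 1 the counts were 11 and 2. The 7 members that passed in all 17 fits were Ndufa10, Ndufa9, Ndufb5, Ndufv1, Ndufs6 and Ndufa13, all higher, and Ndufa3, which was lower.

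**Figure D1:**
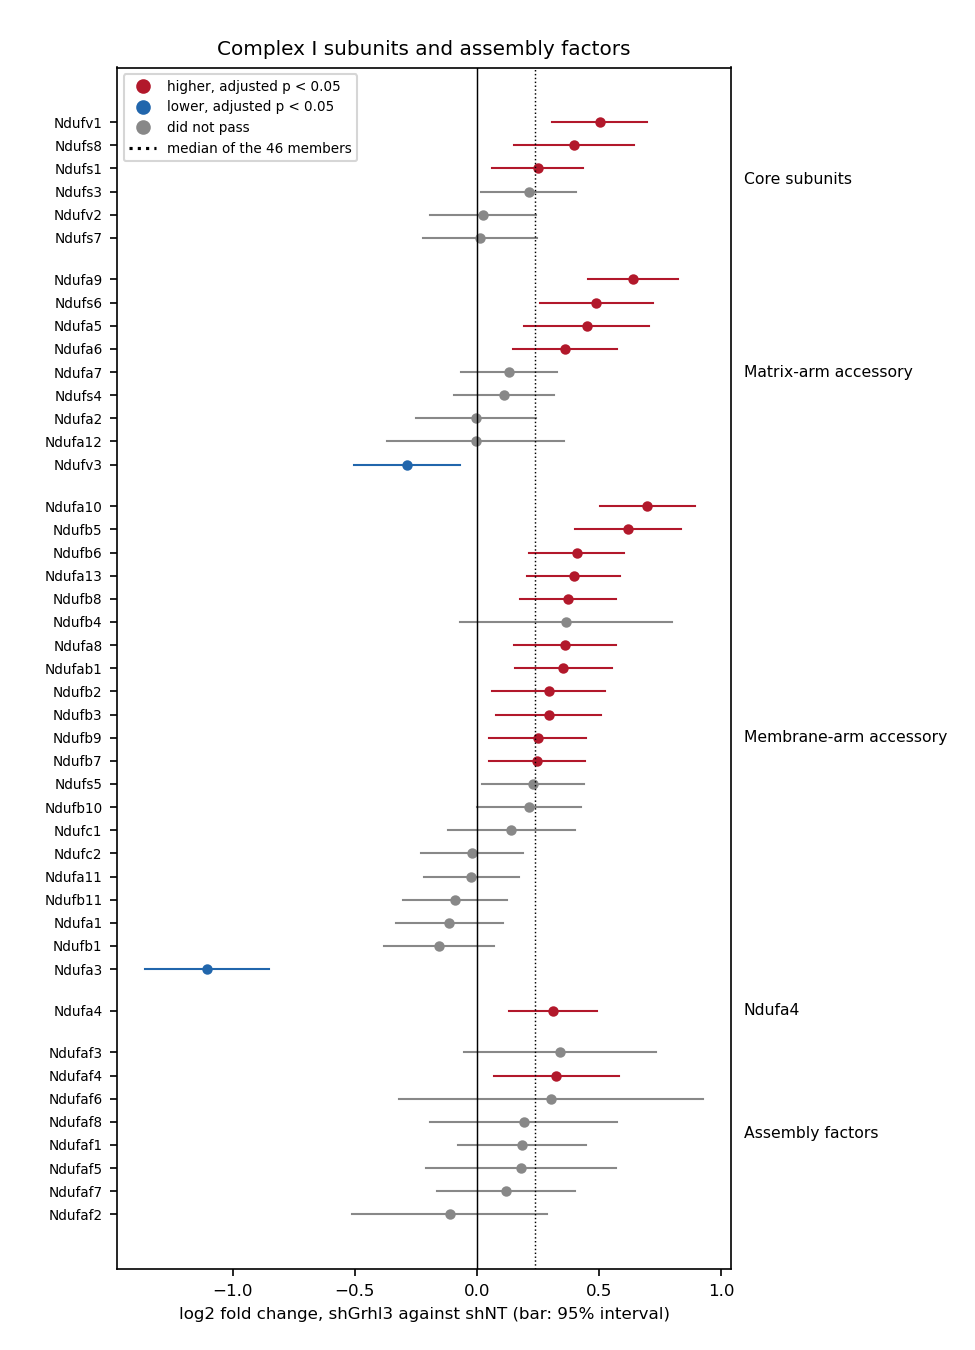
Log2 fold change of shGrhl3 against shNT (x axis) for 45 of the 46 members, grouped by role, with 95% intervals as bars and colour for the result of the test. Most points lie right of 0 around the dotted median of 0.24, and Ndufa3 stands alone at -1.11.

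Ndufa3, a small subunit of the membrane arm with a single membrane-spanning helix, went against most members. Its level was 54.1 and 46.9 CPM in shNT and 26.0 and 20.9 CPM in shGrhl3. Both shGrhl3 libraries were below both controls, with means of 50.5 ± 5.06 and 23.5 ± 3.604 CPM (SD, n = 2). This was a 2.15-fold lower level, a log2 fold change of -1.11 (SE 0.12, adjusted p = 2.23e-07 by edgeR's quasi-likelihood test). Within the summed level of the 37 structural subunits, Ndufa3 took 2.62% and 2.27% in shNT and 1.04% and 0.898% in shGrhl3. Ndufa3 lies on chromosome 7 from 3617347 to 3620165 (GRCm38.p6, the mm10 assembly). Tfpt, which begins 158 bases past its end, was at 14.4 ± 1.12 and 13.3 ± 2.00 CPM (SD, n = 2; log2 fold change -0.10, adjusted p = 0.658 by edgeR). Counts per gene cannot show whether 1 transcript of Ndufa3 or all of them differed.

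Ndufa10, an accessory subunit of the membrane arm related to nucleoside kinases, had the highest fold change. It was at 66.3 and 68.0 CPM in shNT and at 116 and 102 CPM in shGrhl3. The means were 67.2 ± 1.17 and 109 ± 10.2 CPM (SD, n = 2), a log2 fold change of 0.70 (SE 0.09, adjusted p = 3.78e-06 by edgeR). The gene runs along the minus strand of chromosome 1 from 92439486 to 92473825. To set the members at the opposite ends of the range side by side, the RefSeq sequence just outside each gene is shown from the GRCm38.p6 promoter table: chr7:3617123-3617346 on the plus strand for Ndufa3 and chr1:92473826-92474008 on the minus strand for Ndufa10. Each reads 5′ to 3′ towards the gene, and capitals mark GGGCGG or its reverse complement CCGCCC, the letters bound by SP and KLF factors.
Ndufa3: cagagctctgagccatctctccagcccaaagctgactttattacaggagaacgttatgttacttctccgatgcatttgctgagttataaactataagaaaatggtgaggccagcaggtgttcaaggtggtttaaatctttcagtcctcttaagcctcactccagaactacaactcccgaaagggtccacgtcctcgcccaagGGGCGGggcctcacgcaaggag
Ndufa10: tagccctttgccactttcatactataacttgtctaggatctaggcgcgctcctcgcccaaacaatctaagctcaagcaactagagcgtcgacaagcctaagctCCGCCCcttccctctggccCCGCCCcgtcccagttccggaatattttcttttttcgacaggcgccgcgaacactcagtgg
Of the 6 motifs searched, Ndufa3 held 1 match before its start and Ndufa10 held 2, all of this GC-rich kind.

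**Figure D2:**
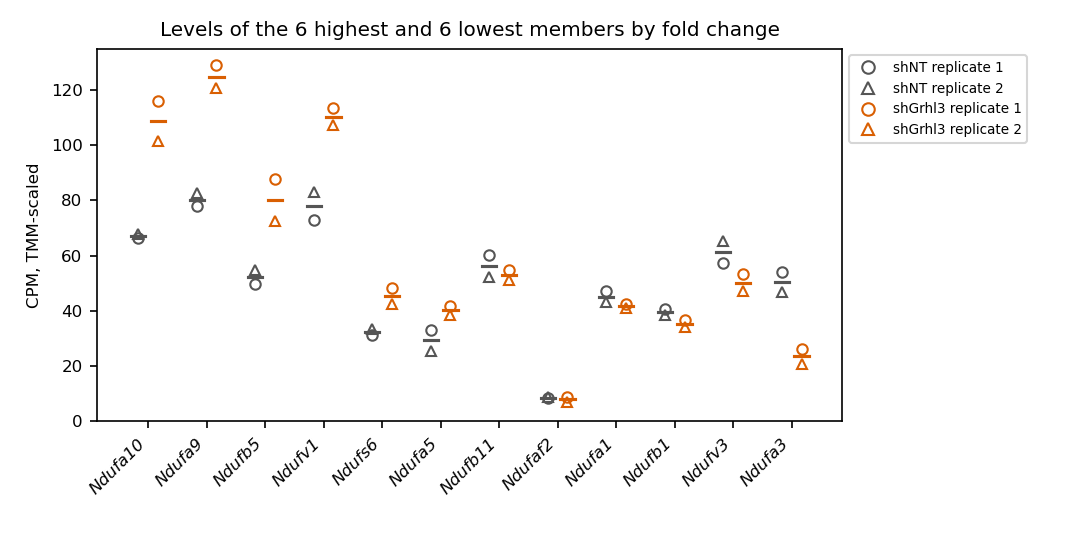
Level of the 6 members with the highest and the 6 with the lowest log2 fold change (y axis, CPM scaled by library normalization factors, from 0), with each library as a point and the mean of each group as a bar. The groups are apart for the 6 on the left, for Ndufa1, Ndufb1, Ndufv3 and Ndufa3, and overlap for Ndufb11 and Ndufaf2.

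The 7 nuclear core subunits carry out the electron transfer itself. Of them 3 were higher (42.9%, against 17.1% of all genes tested), none was lower (17.9% of all genes) and 4 did not pass. Their median log2 fold change was 0.21. The count of lower core subunits was also 0 at an unadjusted p under 0.05 in edgeR and with DESeq2 and limma-voom. Ndufv1, which binds NADH and the flavin at the entry of the electron path, was at 72.8 and 83.1 CPM in shNT and 113 and 107 CPM in shGrhl3. The groups did not overlap, and the log2 fold change was 0.50 (SE 0.09, adjusted p = 0.000197 by edgeR). Ndufs8, an iron-sulphur subunit near the quinone site, was at 30.2 and 32.8 CPM in shNT and 45.8 and 37.2 CPM in shGrhl3 (log2 fold change 0.40, SE 0.12, adjusted p = 0.0113 by edgeR). Without shNT replicate 1 the adjusted p of Ndufs8 was 0.0939, and without shGrhl3 replicate 1 it was 0.191 with a log2 fold change of 0.24.

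Ndufs1, the largest subunit and carrier of several iron-sulphur clusters, rose from 91.02 and 95.8 CPM to 116 and 106 CPM (a log2 fold change of 0.25, SE 0.09, adjusted p = 0.0359 by edgeR). That call was lost with DESeq2 (adjusted p = 0.0611), with the replicate number as a block (0.0739) and without shNT replicate 1, shNT replicate 2 or shGrhl3 replicate 1 (0.276, 0.109 and 0.177). Ndufs3, a subunit of the quinone-binding module, was at 67.4 and 66.8 CPM in shNT and 80.1 and 75.2 CPM in shGrhl3. Its libraries did not overlap, but the log2 fold change of 0.21 (SE 0.09) had an adjusted p of 0.0836 by edgeR, and only without shGrhl3 replicate 2 did it pass (0.0365). Ndufv2, partner of Ndufv1, lay near 0 at 0.02 (SE 0.10), as did Ndufs7, which holds the last iron-sulphur cluster before ubiquinone, at 0.01 (SE 0.11). Their libraries overlapped between the groups.

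The matrix arm has 9 accessory subunits in the set, of which 4 were higher, 1 was lower and 4 did not pass (median log2 fold change 0.13). The shares were 44.4% higher and 11.1% lower, against 17.1% and 17.9% of all genes tested. Ndufa9, a nucleotide-binding subunit at the junction of the arms, was at 77.8 and 82.6 CPM in shNT and 129 and 121 CPM in shGrhl3. Every shGrhl3 value exceeded every control value, and the log2 fold change was 0.64 (SE 0.09, adjusted p = 6.08e-06 by edgeR). Ndufs6, a zinc-binding subunit needed late in matrix arm assembly, rose from 31.3 and 33.5 CPM to 48.4 and 42.3 CPM (a log2 fold change of 0.49, SE 0.11, adjusted p = 0.00146 by edgeR). Ndufa5 was at 33.1 and 25.6 CPM in shNT and at 41.9 and 38.4 CPM in shGrhl3, a log2 fold change of 0.45 (SE 0.12, adjusted p = 0.00654 by edgeR) that fell to 0.28 without shNT replicate 2 (adjusted p = 0.169).

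Ndufa6, which anchors the acyl carrier protein in the matrix arm, also rose, from 40.0 and 39.4 CPM to 50.8 and 51.2 CPM (a log2 fold change of 0.36, adjusted p = 0.00849 by edgeR). It missed the threshold without shNT replicate 1 (0.0537) and without shNT replicate 2 (0.0648). Ndufv3, a small protein beside the flavin subunit, was the other member that was lower. It was at 57.1 and 65.3 CPM in shNT and 53.2 and 47.2 CPM in shGrhl3, a log2 fold change of -0.29 (SE 0.10, adjusted p = 0.0372 by edgeR). It missed the threshold when libraries were scaled by their totals alone (adjusted p = 0.0562), with DESeq2 (0.0967), with the replicate number as a block (0.0611), without shNT replicate 2 (0.371, with a log2 fold change of -0.19) and without shGrhl3 replicate 2 (0.241, with -0.18). Ndufa7, Ndufs4, Ndufa2 and Ndufa12 had log2 fold changes from -0.01 to 0.13 and did not pass. Ndufa12 is treated further below, since a pseudogene row carries its name.

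Of the 21 accessory subunits of the membrane arm, 11 were higher, 1 (Ndufa3) was lower and 9 did not pass. The shares were 52.4% higher and 4.76% lower, against 17.1% and 17.9% of all genes tested. The median log2 fold change was 0.25. Ndufb5, a subunit of the distal part, was at 49.7 and 54.9 CPM in shNT and 87.9 and 72.6 CPM in shGrhl3. The groups were well apart, and the log2 fold change was 0.62 (SE 0.11, adjusted p = 6.61e-05 by edgeR). Ndufa13, also known as GRIM-19 and found near the heel of the enzyme, rose from 70.3 and 65.9 CPM to 89.7 and 89.4 CPM (a log2 fold change of 0.40, SE 0.09, adjusted p = 0.00170 by edgeR). Ndufb6 went from 73.0 and 66.1 CPM to 90.4 and 94.3 CPM, with a log2 fold change of 0.41 and an adjusted p of 0.00148 by edgeR. Ndufab1, the mitochondrial acyl carrier protein, which serves in fatty acid synthesis as well as in complex I, was at 63.6 and 67.4 CPM in shNT and 79.1 and 88.2 CPM in shGrhl3 (log2 fold change 0.35, adjusted p = 0.00577 by edgeR).

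The remaining membrane arm subunits that passed were Ndufb8, Ndufa8, Ndufb2, Ndufb3, Ndufb9 and Ndufb7, with log2 fold changes of 0.37, 0.36, 0.29, 0.29, 0.25 and 0.25. These calls were lost in some fits, among them fits that leave a lone library in a group. With 1 library left out, the log2 fold changes were 0.28 to 0.48 for Ndufb8, 0.30 to 0.44 for Ndufa8 and 0.23 to 0.37 for Ndufb2. They were 0.23 to 0.36 for Ndufb3, 0.20 to 0.32 for Ndufb9 and 0.22 to 0.27 for Ndufb7. Ndufb8, Ndufa8 and Ndufb6 missed the threshold without shNT replicate 2 (adjusted p = 0.0814, 0.0577 and 0.0547 in edgeR), and Ndufab1 without shNT replicate 1 (0.0922). Ndufb2, Ndufb3, Ndufb9 and Ndufb7 missed it without either shNT library (adjusted p 0.0655 to 0.303 in edgeR), with DESeq2 and with the replicate block. Ndufb2, Ndufb3 and Ndufb9 missed it without shGrhl3 replicate 1 too, and Ndufb7 without shGrhl3 replicate 2. With no filter on low counts Ndufb2, Ndufb9 and Ndufb7 missed it as well (adjusted p = 0.0519, 0.0603 and 0.0620 in edgeR). Ndufb9 also missed it with no robust spread (0.0513 in edgeR). Among the 9 that did not pass, Ndufs5 and Ndufb10 had values of 0.23 and 0.21 and passed only without shGrhl3 replicate 2. With 1 library left out, Ndufb10 ranged from 0.087 (shNT replicate 1 removed) to 0.34 (shNT replicate 2 removed) and passed at neither end. Ndufb4, the structural subunit with the lowest CPM (5.79 to 9.07), had 0.36 with an SE of 0.21. Ndufc1, Ndufc2 and Ndufa11 lay between -0.02 and 0.14, and Ndufb11, Ndufa1 and Ndufb1 at -0.09, -0.11 and -0.16. For Ndufb1 (40.5 and 38.4 CPM in shNT, 36.5 and 34.2 in shGrhl3) and Ndufa1 both shGrhl3 libraries were below both controls, but neither passed.

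Ndufa4 was named as a complex I subunit, and its protein is known as a subunit of complex IV, cytochrome c oxidase. It was at 112 and 107 CPM in shNT and 142 and 130.2 CPM in shGrhl3. The groups did not overlap, with a log2 fold change of 0.31 (SE 0.09, adjusted p = 0.00779 by edgeR). Without shNT replicate 2 the adjusted p was 0.108.

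The assembly factors had far fewer counts than most subunits, 39 to 581 per library against 92 to 2588 for the structural subunits described here. Their SEs were larger (median 0.19 against 0.10). Counts are not scaled by transcript length, so these values compare counting precision, not molecules. Of the 8 factors 1 was higher (12.5%, against 17.1% of all genes tested), none was lower (17.9% of all genes) and 7 did not pass. Their median log2 fold change was 0.19. Whether these shares differ from those of all genes was not tested. No factor was lower at an unadjusted p under 0.05 in edgeR, nor with DESeq2 or limma-voom. Ndufaf4, which works with Ndufaf3 early in building the quinone module, was at 21.3 and 20.3 CPM in shNT and 26.7 and 25.5 CPM in shGrhl3 (log2 fold change 0.33, SE 0.12, adjusted p = 0.0432 by edgeR). That call was lost with DESeq2 (0.117), with no filter on low counts (0.0597), with the replicate block (0.0641) and without any 1 of the 4 libraries (0.0503 to 0.191).

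Ndufaf3 had a log2 fold change like that of its partner, 0.34 (SE 0.19), but at 7.15 to 9.61 CPM its adjusted p was 0.179. Ndufaf6, which is linked to synthesis of the mitochondrial subunit ND1, had 0.30 (SE 0.30) at 2.45 to 3.74 CPM. Ndufaf8 and its partner Ndufaf5, the enzyme that hydroxylates an arginine of Ndufs7, had 0.19 (SE 0.18) and 0.18 (SE 0.19). Ndufaf1, a scaffold of membrane arm assembly, had 0.18 (SE 0.13), and Ndufaf7, an arginine methyltransferase, had 0.12 (SE 0.14). Ndufaf2, a relative of Ndufa12, was the sole factor below 0, at -0.11 (SE 0.19).

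The list of complex I assembly factors with other names held 11 genes, and 10 were tested. Of these 4 were higher (40%, against 17.1% of all genes tested), none was lower (17.9% of all genes) and 6 did not pass. Their median log2 fold change was 0.27. The scaffold gene Tmem186, which acts beside Ndufaf1, was at 16.2 and 16.1 CPM in shNT and 26.0 and 21.9 CPM in shGrhl3 (log2 fold change 0.57, SE 0.13, adjusted p = 0.00201 by edgeR). Foxred1, a flavoprotein-like factor, rose from 20.2 and 21.3 CPM to 31.8 and 27.4 CPM (a log2 fold change of 0.51, SE 0.12, adjusted p = 0.00247 by edgeR). Timmdc1, a membrane factor that builds around ND1, had a log2 fold change of 0.42 (adjusted p = 0.0110 by edgeR). Dmac1, a factor for the distal membrane arm, had 0.35 (adjusted p = 0.0467 by edgeR). Timmdc1 missed the threshold without shNT replicate 1 (0.0800) and without shGrhl3 replicate 1 (0.0951). Dmac1 missed it without shNT replicate 1 (0.328), without shGrhl3 replicate 2 (0.195), with DESeq2 (0.131), with no filter (0.0546) and with the replicate block (0.0566). No gene of this list was lower at an unadjusted p under 0.05 in edgeR, nor with DESeq2 or limma-voom.

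The membrane arm core is encoded by mitochondrial DNA. Of its 7 genes 6 were tested. Of these 5 were higher (83.3%, against 17.1% of all genes tested), none was lower (17.9% of all genes) and 1 did not pass. Their median log2 fold change was 0.33. The count of lower genes was 0 also unadjusted in edgeR and with DESeq2 and limma-voom. Their summed level was 8091 and 8493 CPM in shNT and 10008 and 10447 CPM in shGrhl3, a ratio of means of 1.23. All mitochondrial transcripts together took 2.12% and 2.21% of counts in shNT and 2.49% and 2.52% in shGrhl3. In edgeR's test mt-Nd5 had a log2 fold change of 0.38 (adjusted p = 0.00443), mt-Nd6 0.37 (0.00168), mt-Nd2 0.30 (0.00480), mt-Nd4 0.27 (0.0111) and mt-Nd1 0.25 (0.0174). The shGrhl3 libraries of mt-Nd5 lay apart, at 2530 and 3220 CPM, and leaving out shGrhl3 replicate 2 gave a log2 fold change of 0.21, against 0.54 when replicate 1 of that group was left out. It passed both times. Without shNT replicate 1, mt-Nd6, mt-Nd2, mt-Nd4 and mt-Nd1 missed the threshold (0.0922, 0.0933, 0.2997 and 0.289). Without shNT replicate 2, mt-Nd2 and mt-Nd1 did (0.0834 and 0.0972), and mt-Nd1 also missed it without shGrhl3 replicate 1 (0.0635) and with the replicate block (0.0523). The gene mt-Nd6 is encoded on the strand opposite mt-Nd5, and the sources used here do not give the strand setting of the counting. Reads from both strands may thus have been counted together over either gene. Only 3 to 16 counts fell on mt-Nd3 and 3 to 10 on mt-Nd4l, and the latter was too low to test.

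Nuclear subunits of complexes II to V, the rest of the oxidative phosphorylation chain, gave the scale for these changes. Of 43 listed genes 42 were tested, with 27 higher, 2 lower and 13 not passing. The shares were 64.3% higher and 4.76% lower, against 17.1% and 17.9% of all genes tested. The median log2 fold change was 0.31, beside 0.24 for the complex I members. By complex, 2 of 4 were higher in complex II (median 0.22), 7 of 9 in complex III (0.32), 9 of 14 in complex IV (0.27) and 9 of 15 in complex V (0.32). The summed level went from 5111 ± 71.8 to 6397 ± 274 CPM (SD, n = 2), a ratio of 1.25, beside 1.17 for complex I. Whether the sets differ from each other was not tested. The 3 highest were Cox6a2 and Cox6b2, tissue-restricted subunits of complex IV, and Uqcr10 of complex III. In edgeR's test Cox6a2 rose by 2.15 on the log2 scale (0.731 and 0.692 to 3.34 and 3.05 CPM, adjusted p = 0.000299), Uqcr10 by 1.28 (38.0 and 36.7 to 91.1 and 90.3 CPM, adjusted p = 6.61e-10) and Cox6b2 by 1.09 (4.28 and 3.52 to 8.12 and 8.61 CPM, adjusted p = 0.000537).

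The lowest of complexes II to V that passed were Uqcrh, Atp5l and Sdha. Uqcrh, the hinge protein of complex III, went from 123 and 122 CPM to 82.4 and 73.1 CPM (a log2 fold change of -0.66, SE 0.09, adjusted p = 5.47e-06 by edgeR). Atp5l of the ATP synthase was at 52.4 and 38.9 CPM in shNT and at 33.8 and 34.5 CPM in shGrhl3, a log2 fold change of -0.42 (adjusted p = 0.0119 by edgeR) that became -0.19 without shNT replicate 1 (adjusted p = 0.404). Sdha, the flavoprotein of complex II, was higher by 0.21 (adjusted p = 0.0495 by edgeR) and missed the threshold without shNT replicate 1, shNT replicate 2 or shGrhl3 replicate 1 (0.272, 0.232 and 0.0782), and with DESeq2 (0.0596), no filter (0.0666), no robust spread (0.0546) and the replicate block (0.112). Ndufa3 in complex I, Uqcrh in complex III and Atp5l in complex V were thus each lower while most tested genes of the same complex had positive fold changes. Fewer subunits of complexes II to V passed without shNT replicate 2, and so did fewer of all genes tested.

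**Figure D3:**
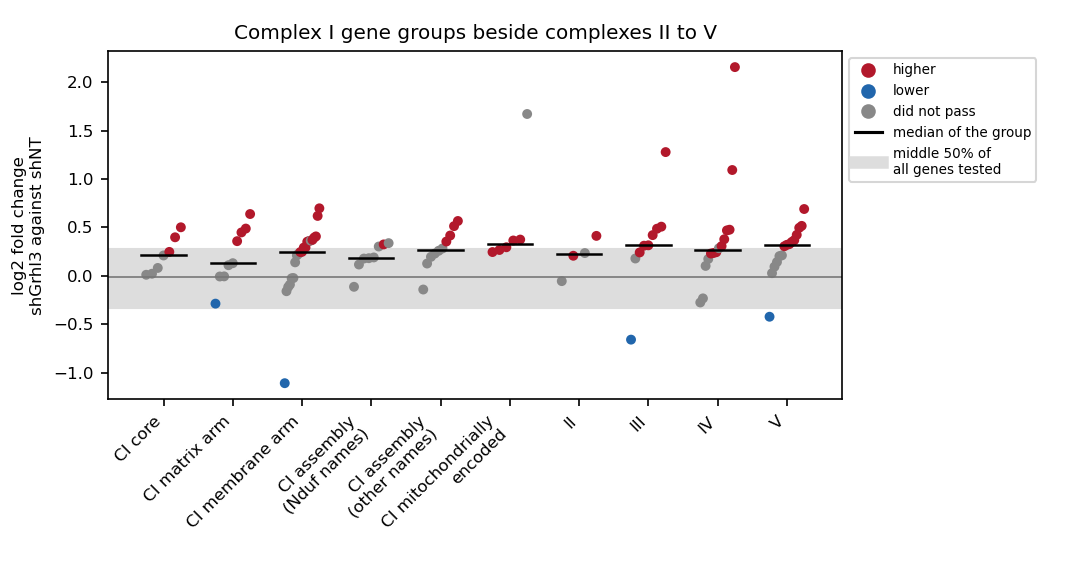
Log2 fold change of shGrhl3 against shNT (y axis) for each tested gene of the complex I (CI) groups and of complexes II to V, with group medians as black lines and the middle 50% of all genes tested as a grey band. Group medians run from 0.13 to 0.33, and 1 subunit each of complexes III and V and 2 of complex I are coloured as lower.

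Of 12 listed genes for transcriptional regulators of mitochondrial biogenesis 11 were tested, with 5 higher, 2 lower and 4 not passing. The shares were 45.5% higher and 18.2% lower, against 17.1% and 17.9% of all genes tested. The lower share was thus close to that of all genes. Ppargc1a, which encodes the coactivator PGC-1alpha, had 13 and 6 counts in shNT and 50 and 37 in shGrhl3 (0.678 and 0.377 to 2.49 and 1.98 CPM). The log2 fold change was 2.05 with an SE of 0.51 (adjusted p = 0.00296 by edgeR), at low counts. Its relative Ppargc1b rose by 1.36 on the log2 scale, from 2.92 and 2.39 CPM to 6.38 and 7.33 CPM (adjusted p = 0.000257 by edgeR). Of the estrogen-related receptors that these coactivators bind, Esrrg and Esrra were also higher. Esrrg rose by 0.85 (6.26 and 6.54 to 11.51 and 11.55 CPM, adjusted p = 0.000907 by edgeR). Esrra rose by 0.53 (34.8 and 36.4 to 54.9 and 48.1 CPM, adjusted p = 0.000461 by edgeR). Esrrb, also on the list, had 0 to 1 counts in any library, too few to test.

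The subunits of GA-binding protein, an ETS factor known to act on nuclear respiratory genes, went opposite ways. Gabpa, the DNA-binding subunit, was at 80.2 and 77.2 CPM in shNT and 46.2 and 40.6 CPM in shGrhl3 (log2 fold change -0.86, SE 0.10, adjusted p = 4.68e-07 by edgeR). Gabpb1, its partner, was at 28.0 and 33.8 CPM in shNT and 41.8 and 45.6 CPM in shGrhl3 (0.50, SE 0.12, adjusted p = 0.00162 by edgeR). Gabpb1 missed the threshold without shNT replicate 1 (0.0591). Pprc1, a coactivator related to PGC-1alpha, was lower, from 60.7 and 62.8 CPM to 42.0 and 41.7 CPM (-0.56, adjusted p = 0.000109 by edgeR). Tfam, Nrf1, Yy1 and Ppara had log2 fold changes of 0.22, -0.05, -0.10 and -0.32 and did not pass.

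**Figure D4:**
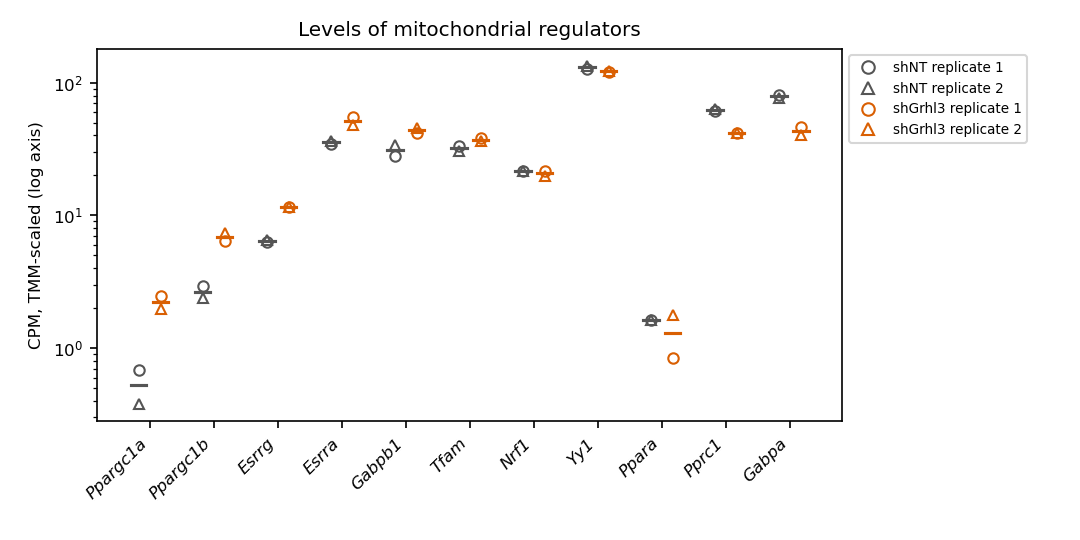
Level of the 11 tested regulator genes in each library (y axis, normalized CPM on a log axis), with points for libraries and bars for group means. Ppargc1a, Ppargc1b, Esrrg, Esrra and Gabpb1 lie higher in shGrhl3, and Pprc1 and Gabpa lie lower.

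RefSeq promoter windows of GRCm38.p6, each 250 bases before to 50 after a start, were found for 41 of the 46 members, giving 43 windows. Ndufa2, Ndufaf6, Ndufb9 and Ndufs1 were among those not matched. The letters AAGATGGC on either strand, the core bound by YY1, were in 8 of the 43 windows (18.6%), against 2.75% of all 32851 windows and 4.10% of the 14088 windows of tested genes. They were in 3 of the 19 windows of members that were higher, 1 of 2 of members that were lower and 4 of 22 of the rest. In all 8 the letters stood on the gene's strand within the first 50 bases after the start, as the 30-base stretches around them show, with the 8 letters in capitals.
Ndufa3: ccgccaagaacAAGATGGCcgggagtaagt
Ndufa9: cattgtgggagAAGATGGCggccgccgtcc
Ndufs6: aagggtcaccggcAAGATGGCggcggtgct
Ndufb8: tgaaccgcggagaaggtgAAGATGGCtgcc
Ndufs4: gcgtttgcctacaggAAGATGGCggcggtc
Ndufs7: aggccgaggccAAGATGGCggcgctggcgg
Ndufc1: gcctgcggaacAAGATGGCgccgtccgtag
Ndufaf8: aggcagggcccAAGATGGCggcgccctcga
The stretches lie at chr7:3617384-3617413 (plus strand, Ndufa3), chr6:126849097-126849126 (minus, Ndufa9), chr13:73328433-73328462 (minus, Ndufs6), chr19:44555393-44555422 (minus, Ndufb8), chr13:114388045-114388074 (minus, Ndufs4), chr10:80249462-80249491 (plus, Ndufs7), chr3:51408915-51408944 (minus, Ndufc1) and chr11:120098933-120098962 (plus, Ndufaf8). The letters hold an ATG, and a match is a description of the sequence, not of binding. Whether the letters relate to the direction of change was not tested.

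The NRF1 letters GCGCATGCGC, which read the same on both strands, were in 3 of 43 member windows (6.98%), those of Ndufa11, Ndufaf4 and Ndufaf5, against 0.971% of all windows and 1.895% of windows of tested genes. The ETS letters CCGGAAG were in 13.95% of member windows and 16.3% of those of tested genes, and the letters AAGGTCA of estrogen-related receptors in 6.98% and 3.12%. GGGCGG was in 51.2% and 60.8%, and CCAAT in 32.6% and 37.4%. All were searched on both strands, and no motif contains another.

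Members lay on 18 chromosomes, with 2 on X. Ndufs8 (3908863 to 3912774), Ndufv1 (4007499 to 4012755) and Ndufb8 (44548571 to 44555442) are on chromosome 19, and all were higher. Doc2g, 493 bases from Ndufv1, was higher as well (log2 fold change 1.62, adjusted p = 1.81e-06 by edgeR). Aldh3b1, 716 bases from Ndufs8, did not pass (-0.12). Topors, 749 bases from Ndufb6, was lower (-0.43, adjusted p = 0.000901 by edgeR) while Ndufb6 was higher. Genes that start close by in the opposite direction were sought only among those with a promoter window. Of the members 5 have no window, and neighbours without one were not seen, so pairs may be missing. Within this set 13 members had such a partner within 1000 bases, and 10 partners were tested. Of these 2 were higher, 1 was lower and 7 did not pass, against 17.1% higher and 17.9% lower of all genes tested. Their median log2 fold change was -0.01, beside 0.19 for their 10 members. Mrpl47, a mitochondrial ribosomal protein gene 308 bases from the start of Ndufb5, rose with it (14.3 ± 0.790 to 18.4 ± 1.52 CPM, SD, n = 2; log2 fold change 0.37, adjusted p = 0.0478 by edgeR). Fam126b, 64 bases from the start of Ndufb3, was lower (31.7 ± 2.21 to 19.0 ± 0.364 CPM; -0.74, adjusted p = 4.59e-05 by edgeR) while Ndufb3 was higher. Ercc8, opposite Ndufaf2, was higher (0.50, adjusted p = 0.0453 by edgeR). Of the members, 13 overlap another annotated gene, in 6 cases a protein-coding one (among them Ndufv2, Ndufa2, Ndufa13, Ndufb11 and Ndufa1). The sources used here do not say how the counting treated shared reads.

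Some rows with Nduf names fall outside the member rule. The pseudogene row Ndufa12-ps held more counts than Ndufa12 itself: 27.6 and 25.2 CPM in shNT and 33.6 and 35.1 CPM in shGrhl3, against 17.1 and 11.1, and 14.1 and 14.2 CPM. Its log2 fold change was 0.38 (SE 0.12, adjusted p = 0.0132 by edgeR), and that of Ndufa12 was -0.01 (SE 0.17). The 2 rows summed to 44.6 and 36.3 CPM in shNT and 47.7 and 49.2 CPM in shGrhl3. Reads of such near-identical copies could be split by the counting, so the value of Ndufa12 is uncertain. Ndufa4l2, a relative of Ndufa4 known from hypoxia, had 7 and 11 counts in shNT and 30 and 14 in shGrhl3, a log2 fold change of 1.11 with an SE of 0.62 (adjusted p = 0.173 by edgeR).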

How the data were processed

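Gene-level RNA-seq was compared between 2 shNT and 2 shGrhl3 libraries. The authors deposited 1 table of raw counts per gene, whole numbers with no normalization found. The submitters' processing notes name the mm10 build and, without roles, Bowtie2 2.2.6, ChIPseeker, HISAT2 2.0.1, MACS2 and cutadapt 1.9.1. Counting program, annotation and strand setting: not given in the sources used here. Columns were matched to samples by name, and 0 sample columns were left unused. Of 55359 rows, 1438 name no gene (0.00432% to 0.00872% of counts) and were left out. Library totals ran from 16104243 to 19823397, which limits the precision of genes with few counts.

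Counts were tested with edgeR 4.0.16 (R 4.3.3; TMM scaling, filterByExpr with a minimum count of 10, robust quasi-likelihood fit, two-sided test, Benjamini-Hochberg adjustment over 15324 genes, threshold 0.05), and the procedure was tested on simulated data. CPM values are counts over the TMM-scaled library total, computed here. The 16 alternatives include DESeq2 1.42.0 and limma 3.58.1 (voom), other scalings and filters, the replicate number as a block and each library left out. The members and gene lists were chosen with earlier results of these data known. Named with values are members past the threshold with a log2 fold change of at least 0.5 in size, the 6 highest and 6 lowest, all core subunits and Nduf-named assembly factors, other complex I genes and regulators past the threshold, and the 3 highest and 3 lowest of complexes II to V past it. Other members are named beside their groups. Of the members, 1 is counted in the totals and is not reported here by itself. Promoter sequences and gene positions are from RefSeq for GRCm38.p6.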

Additional observations from a re-analysis of the deposited data

How the results depend on the processing

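Of 540 values of 45 single members under the 12 alternatives that keep all libraries, 506 kept their direction and side of the threshold, 20 lost the call and 14 changed sign. None of the 22 called members changed sign in any of the 16 alternatives, and 7 kept the call in all of them. Complex I members that were higher numbered 20, and 8 to 21 when 1 library was left out; those that were lower numbered 2, and 1 to 2. Lower members numbered 1 with library size alone, with DESeq2 and with the replicate block. DESeq2 and the block each left 14 higher members. Higher genes among the other complex I genes numbered 9, 4 with the mitochondrial rows left out, which removes 5 of them by construction, and 4 to 8 with 1 library left out. In complexes II to V, 27 were higher (15 to 30 with 1 library left out, 22 with the block) and 2 lower (1 to 2). Fits without 1 library leave a lone sample in an arm, which is assumed to vary like the other group.

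The replicate numbers are not said to pair the samples, and the replicate differences of the groups correlated at -0.0845 across 15324 genes and at -0.169 across 9586 genes of at least 10 CPM. With the replicate block 4889 genes passed, and 5842 with crossed numbers (an alternative chosen after seeing the data, as was leaving out ribosomal RNA rows), beside 5368 in the main test and 4234 with DESeq2.

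Sign changes touched members near 0. Ndufa2 became 0.0018 with RLE size factors, 0.022 with library size alone, 0.0018 with DESeq2, 0.00022 with no filter and 0.0060 without ribosomal RNA rows. Ndufa12 became 2.11e-05, 0.019 and 0.0045 under the first 3 of these, 0.010 with limma-voom, 0.021 with either block and 0.0047 without ribosomal RNA rows. With library size alone Ndufa11 became 0.0014 and Ndufc2 0.0039. Leaving out 1 library gave -0.10 to 0.064 for Ndufa11, -0.22 to 0.20 for Ndufa2, -0.27 to 0.34 for Ndufa12, -0.068 to 0.093 for Ndufs7, -0.10 to 0.15 for Ndufv2, -0.059 to 0.025 for Ndufc2, -0.18 to 0.015 for Ndufb11, -0.030 to 0.34 for Ndufc1 and -0.27 to 0.046 for Ndufaf2. The cause of these changes was not tested. Low counts limit the assembly factors most.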
